A study of Mus musculus with 8 samples.

Results

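Chromatin remodelling genes were examined in mouse embryonic stem cells (ESCs) after knockdown (KD) of Tip60, of Hdac6 or of both. The set was a fixed list of 45 genes out of 30175 gene names on the arrays, and it holds the ATPases and subunits of the BAF and PBAF, NuRD, ISWI, INO80 and SRCAP and CHD remodellers together with Atrx and Hells. All 78 array oligonucleotides that carried one of these names were taken, whatever their values. The genes and lists themselves were chosen with earlier results of these data known. Of the 45 genes, 43 could be tested. Smarca2 and Gatad2b had no oligonucleotide above the lower limit of measurement on 2 or more arrays.

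The cells were E14 ESCs grown without feeders in medium with serum and LIF, and every group, the control included, had been infected with lentivirus carrying short hairpin RNAs and was harvested after 72 hours. Control KD cells received a hairpin against GFP, Tip60 KD cells one against the acetyltransferase gene Kat5 (Tip60), Hdac6 KD cells one against the deacetylase gene Hdac6, and double KD cells both. Each group had 2 arrays, replicates A and B. According to the study's methods a single hairpin, the most effective of those screened, was used per gene, so that an effect of that hairpin and an effect of losing its target cannot be told apart. The design asks whether Tip60-p400 needs Hdac6 for its control of transcription.

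Remodellers use the energy of ATP to slide, eject or exchange nucleosomes. Each is built around an ATPase of the Snf2 family (Smarca4 or Smarca2 in BAF and PBAF, Chd3 or Chd4 in NuRD, Smarca5 or Smarca1 in ISWI, and Ino80, Srcap or a Chd protein in the others), and the further subunits set where the enzyme binds and what it does there. ESCs are known for a particular BAF complex built on Smarca4, Smarcc1, Smarcd1 and Actl6a, and for their need of NuRD to leave the pluripotent state. Actl6a, Ruvbl1 and Ruvbl2 are also known subunits of the Tip60-p400 complex itself.

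The targeted transcripts were low in the groups labelled for them. Kat5 gave 1.34 and 1.37 (control KD), 0.00 and 0.01 (Tip60 KD), 1.52 and 1.53 (Hdac6 KD), and -0.11 and 0.20 (double KD), on the log2 scale used throughout, where 0 is the 75th percentile of the signals on an array. Hdac6 gave 2.21 and 2.18, 1.74 and 1.77, -0.28 and -0.32, and 0.30 and 0.34 in the same order. The 8 arrays had between 21896 and 40609 of 43020 spots well above background, and values under -2.71, the lowest level measured on all arrays, were set to it. All 10 ESC markers were measured, between 2.63 and 7.32, though Nanog and Tdgf1 had no value for Tip60 KD replicate A. Some of them moved with the groups. Pou5f1 gave 3.16 and 3.13 in control KD and 4.17 and 4.13 in Tip60 KD, with its Hdac6 KD and double KD arrays between. Zfp42, Esrrb and Utf1 were also higher on both Tip60 KD arrays than in control KD, and Sox2, Fgf4 and Dppa5a were lower. Markers of other lineages were low but also moved with the groups. The summed linear signal of 4 neural markers was 1.87 and 1.97 (control KD), 3.75 and 4.0 (Tip60 KD), 2.16 and 2.39 (Hdac6 KD), and 3.44 and 3.67 (double KD), mostly from Sox1 and Tubb3. Its movement followed Tubb3, which gave -0.42 and -0.74, 1.35 and 1.41, 0.05 and -0.17, and 1.19 and 1.17 in the same order. Sox1 stayed between -0.31 and 0.16 over the 8 arrays. Pax6, the defining marker, was at -2.71 on all but the Tip60 KD arrays (-2.48 and -2.59). For 4 of 6 fibroblast markers the sum was 2.00 to 2.12 in control KD, 2.79 to 3.06 in Tip60 KD, 2.11 to 2.17 in Hdac6 KD and 2.93 to 3.02 in double KD, and for Krt8, the 1 trophoblast marker of 3 that was measured, 0.43 to 0.44, 0.93 to 1.19, 0.64 to 0.83 and 0.90 to 1.03. Sums of 2 of 4 mesoderm and 2 of 5 endoderm markers lay between 0.77 and 1.39 and between 0.31 and 0.65 over the 8 arrays. The part of these markers in the changes below was not tested. RNA came from whole cultures, in which fewer cells expressing a gene and less RNA per cell cannot be told apart.

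Each gene was read by the oligonucleotide of 60 bases that gave its highest mean signal. The sequences of 6 oligonucleotides that carry most of what follows, some of them further ones for their gene, are given here 5′ to 3′ as on the arrays, with positions on build mm9 as in the array files, all in lower case since no base is singled out. Smarcd3 and Actl6a rose most upon Tip60 KD. The positions of the Smarcd3 and Baz1a oligonucleotides span 272 and 2225 bases of the genome, more than their 60 bases, so that they join exons of a spliced transcript. The Arid1a and Baz1a sequences belong to the dimmer of the oligonucleotides compared for those genes, and Mta3 is shown with both.
Smarcd3, chr5:24098592-24098863, minus strand: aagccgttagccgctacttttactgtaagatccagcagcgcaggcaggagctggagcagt
Actl6a, chr3:32621551-32621610, plus strand: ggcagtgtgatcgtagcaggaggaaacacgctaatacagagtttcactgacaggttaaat
Baz1a, chr12:55997144-55999368, minus strand: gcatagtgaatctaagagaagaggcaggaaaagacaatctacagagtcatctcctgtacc
Arid1a, chr4:133236274-133236333, minus strand: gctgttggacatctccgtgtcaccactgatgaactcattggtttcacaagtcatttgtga
Mta3, brighter, chr17:84192044-84192103, plus strand: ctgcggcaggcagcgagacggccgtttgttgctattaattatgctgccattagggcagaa
Mta3, dimmer, chr17:84113968-84114027, plus strand: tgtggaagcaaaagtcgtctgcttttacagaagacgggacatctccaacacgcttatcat

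RefSeq promoter windows (build GRCm38.p6) were at hand for 35 of the 45 genes. In the 250 bases before the annotated start, the GC box, searched as GGGCGG on both strands, was present for 30 of the 35 (85.7%), against 9555 of 27025 genes with a window (35.4%). The E-box CACGTG, the same on both strands, was present for Bptf and Pbrm1 (5.71%, against 6.86% of all genes), and TATAAA for Mbd3, Ruvbl1 and Smarcd2 (8.57%, against 14.3%). The windows of the most increased genes, Actl6a and Smarcd3, show the first of these features, with GGGCGG or its reverse complement in capitals. The 2 copies in Smarcd3 overlap.
Actl6a, chr3:32708296-32708545, plus strand: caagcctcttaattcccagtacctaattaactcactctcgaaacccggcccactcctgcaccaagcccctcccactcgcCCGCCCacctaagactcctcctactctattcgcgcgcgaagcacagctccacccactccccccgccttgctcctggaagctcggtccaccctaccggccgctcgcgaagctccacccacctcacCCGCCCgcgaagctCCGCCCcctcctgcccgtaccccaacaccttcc
Smarcd3, chr5:24602003-24602252, minus strand: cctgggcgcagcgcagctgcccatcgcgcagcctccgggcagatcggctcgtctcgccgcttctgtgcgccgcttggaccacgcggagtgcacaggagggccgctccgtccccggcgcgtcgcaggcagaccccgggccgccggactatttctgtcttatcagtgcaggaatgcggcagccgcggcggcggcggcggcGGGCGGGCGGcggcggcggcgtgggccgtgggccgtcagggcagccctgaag

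Upon Tip60 KD, 12 remodelling genes rose and 7 fell. Of the increases, 6 lay in BAF and PBAF, which hold 16 of the 43 tested genes, and 3 in NuRD, which holds 7. The increases were led by Smarcd3, which reached 3.17 times its control level, Actl6a and the ISWI partner Baz1a. Arid2 and Chd9 fell most. The 19 called genes make up 44.2% of the 43 tested, beside 39.7% of all 18116 genes, which were called by the same rule, a limma adjusted p under 0.1. By direction, 12 of 43 against 19.7% of all genes were higher, and 7 of 43 against 20.0% were lower. The median change was 0.11 over the 43 genes and 0.06 over all genes. With the replicate letter as a block, 29 of the 43 genes were called, 18 higher and 11 lower, beside 60.9% of all genes (6006 higher, 5022 lower).

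All 19 called genes changed in the same direction on both slides, each of which carried replicate A or replicate B of all 4 groups, as did 18 of the 24 others. The calls came from these same arrays, so that such counts, here and below, are no separate support for them. Smarcb1, Smarcd1, Smarcd3, Pbrm1, Actl6a, Baz1a, Chd8, Chd4, Mta3 and Gatad2a kept their call under every one of 21 alternatives of processing or array choice. Under the 13 alternatives other than left-out arrays, Smarca5 lost its call in 6. Smarcc1, Actr5, Chd3 and Hells lost theirs in 3 of these, Smarcd2 in 2 and Chd9 in 1. The call of Actr8 was lost without control KD replicate A (adjusted p 0.114), and those of Arid2 and Chd9 without control KD replicate A or Tip60 KD replicate B (up to 0.119 and 0.19). Smarcc1 lost its call without control KD replicate B or Tip60 KD replicate A (up to 0.113), and Chd3 without either control KD array or Tip60 KD replicate A (up to 0.173). Actr5 lost it without any of the 4 arrays compared (up to 0.216), and Hells without control KD replicate B, Tip60 KD replicate A or either Hdac6 KD array (up to 0.227). Smarcd2 and Smarca5 each lost it without any 1 of 7 arrays (up to 0.304 and 0.339), the exceptions being Tip60 KD replicate A for Smarcd2 and control KD replicate B for Smarca5.

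Upon Hdac6 KD, 14 remodelling genes rose and 1, Baz2a, fell. Arid1b, Baz1a, Arid1a, Smarcd3 and Mta1 rose most, by between 0.57 and 0.82 on the log2 scale. The 15 called genes were 34.9% of the 43, beside 28.9% of all genes. Higher genes were 14 of 43, beside 14.0% of all genes, and lower genes 1 of 43, beside 14.9%. The median change was 0.14, against 0.03 over all genes. With the block 24 were called, 19 higher and 5 lower, beside 53.0% of all genes (5030 higher, 4564 lower). Without Hdac6 KD replicate B the count was 8. All 15 called genes moved the same way on both slides, as did 23 of the 28 others, and Smarcb1, Smarcd3, Arid1b, Smarca1, Baz1a, Chd3 and Mta1 kept their call under all 21 alternatives.

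In double KD cells, 14 genes rose and 3 fell, Mta3, Baz2a and Actr8. Smarcd3, Baz1a, Brd9, Arid1a and Actl6a rose most. The 17 called genes were 39.5% of the 43, beside 32.8% of all genes, with 14 of 43 higher beside 15.9% and 3 of 43 lower beside 16.9%. The median change was 0.08, against 0.05. With the block 29 genes were called, 18 higher and 11 lower, beside 55.5% of all genes (5303 higher, 4743 lower). The count depended on every array compared, and was 9 without control KD replicate A, 5 without control KD replicate B, 7 without double KD replicate A and 6 without double KD replicate B. Smarcd3, Baz1a, Chd4 and Mta3 kept their call under all 21 alternatives, and all 17 moved the same way on both slides. The 3 comparisons share their control KD arrays, so that they are not independent of one another.

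**Figure D1:**
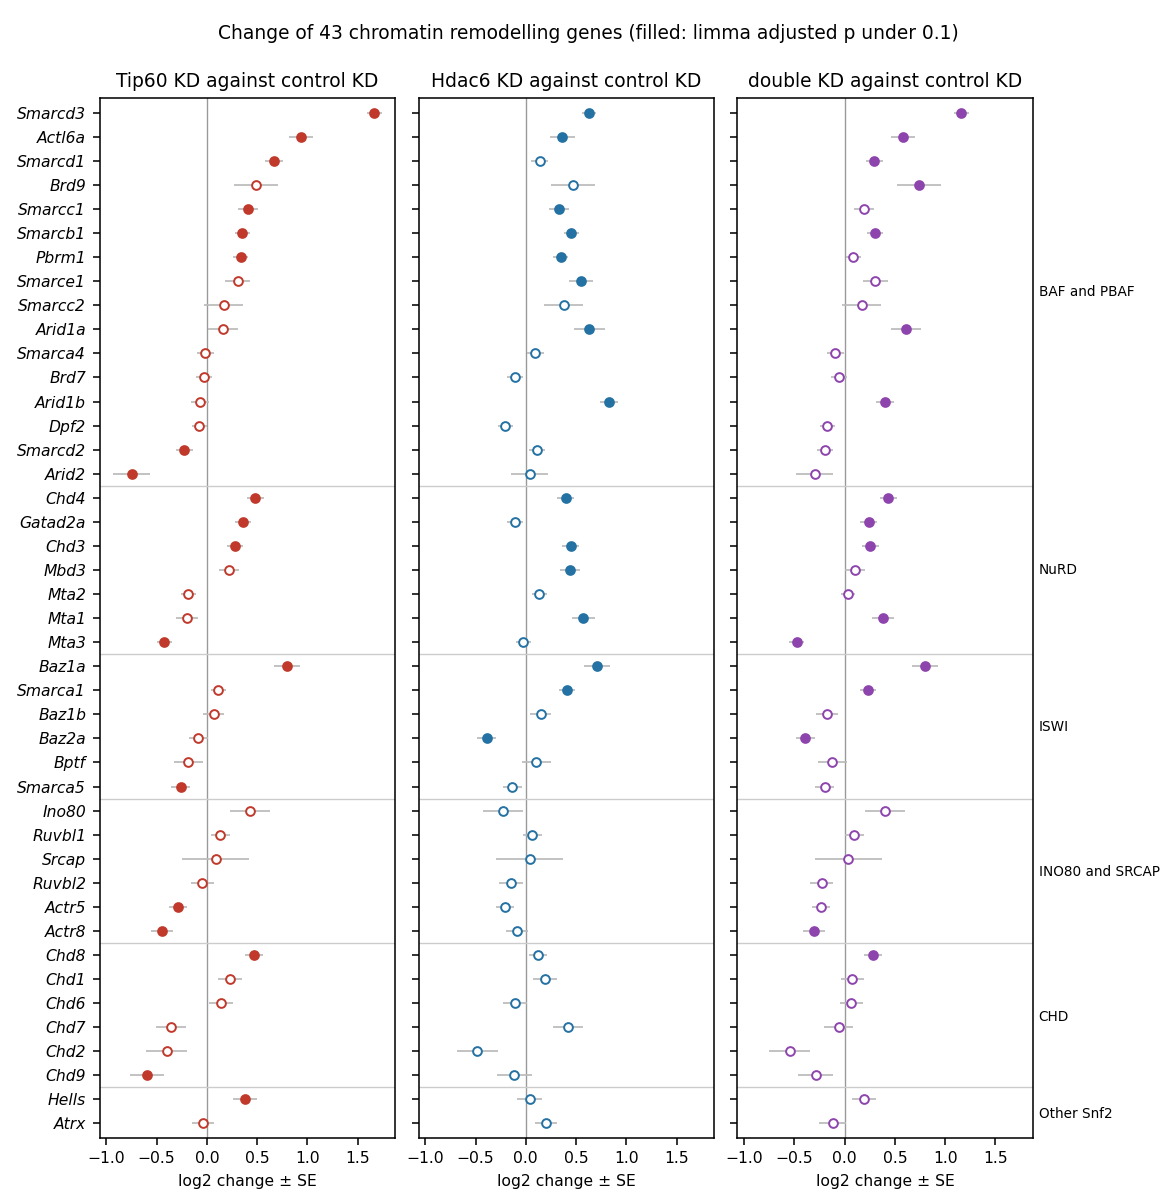
Log2 change and standard error of the 43 tested genes (rows, by complex) in each knockdown against control KD, fitted on 2 arrays per group. Filled points passed a limma adjusted p under 0.1. Most filled points of the BAF and PBAF and NuRD rows lie to the right of 0, and Smarcd3 is the farthest to the right in Tip60 KD, at 1.66.

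The ATPases of BAF and ISWI were followed first. Smarca4 (Brg1), the catalytic subunit of the ESC BAF complex, gave 3.62 and 3.47 (control KD), 3.54 and 3.52 (Tip60 KD), 3.67 and 3.62 (Hdac6 KD), and 3.48 and 3.43 (double KD). Its 8 values lie between 3.43 and 3.67, the groups overlap, and no change was called, with -0.02 (adjusted p 0.923) in Tip60 KD, 0.10 (adjusted p 0.499) upon Hdac6 KD and -0.09 (adjusted p 0.498) in double KD. A second Smarca4 oligonucleotide was not called in any of the 3 either, but its replicates differed more, at 2.77 and 1.95 in double KD. Smarca2 (Brm), the alternative catalytic subunit, was at the lower limit on all 8 arrays and well above background on 4 of them, so that no change could be measured.

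Smarca5 (Snf2h), the main ISWI ATPase of dividing cells, gave 3.28 and 3.10 (control KD), 2.99 and 2.87 (Tip60 KD), 3.09 and 3.02 (Hdac6 KD), and 3.04 and 2.94 (double KD). All 6 knockdown arrays lie below both control KD arrays, by the smallest margin for Hdac6 KD replicate A, and the change was called for Tip60 KD only, at -0.26 (SE 0.10, adjusted p 0.0924). It was -0.20 (adjusted p 0.202, or 0.032 with the block) in double KD and -0.13 (adjusted p 0.405) in Hdac6 KD. Smarca1 (Snf2l), the other ISWI ATPase, gave -0.37 and -0.29 (control KD), -0.17 and -0.26 (Tip60 KD), 0.10 and 0.06 (Hdac6 KD), and -0.12 and -0.07 (double KD). Every knockdown array lies above both control KD arrays, and Smarca1 rose by 0.41 (SE 0.08, adjusted p 0.0173) in Hdac6 KD and by 0.23 (adjusted p 0.0789) in double KD, the latter lost without any array of control KD, Hdac6 KD or double KD (up to 0.263). A second Smarca1 oligonucleotide was higher in all 3 knockdowns, by 0.56 (adjusted p 0.0147) in Tip60 KD, 0.64 (adjusted p 0.0156) upon Hdac6 KD and 0.39 (adjusted p 0.0604) in double KD in the fit on single oligonucleotides.

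The NuRD ATPases rose in every knockdown. Chd4 (Mi-2beta), the main one in ESCs, gave 3.97 and 4.04 (control KD), 4.47 and 4.51 (Tip60 KD), 4.48 and 4.32 (Hdac6 KD), and 4.44 and 4.44 (double KD). All 6 knockdown arrays lie above the control KD arrays without overlap. Chd4 rose by 0.48 (SE 0.08, adjusted p 0.0086) in Tip60 KD, by 0.40 (adjusted p 0.0249) in Hdac6 KD and by 0.43 (adjusted p 0.0165) in double KD. Chd3 (Mi-2alpha) gave -0.23 and -0.30 (control KD), 0.06 and -0.03 (Tip60 KD), 0.20 and 0.16 (Hdac6 KD), and 0.05 and -0.07 (double KD). Again no knockdown array overlaps the control, and Chd3 rose by 0.28 (adjusted p 0.0471), 0.45 (adjusted p 0.0167) and 0.25 (adjusted p 0.0752) in the same order. Under normexp background correction or one background per array, Chd3 lost its calls in Tip60 KD and double KD, and Chd4 its call in Hdac6 KD. Without control KD replicate A or Hdac6 KD replicate A the call of Chd4 in Hdac6 KD was lost (adjusted p up to 0.111), and that of Chd3 in double KD was lost without any 1 of 6 arrays, all but those of Tip60 KD (up to 0.237).

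Of the INO80, SRCAP and other Snf2 ATPases, Ino80, Srcap, Atrx and Hells, only Hells was called against control KD. Ino80 gave 1.67 and 1.41 (control KD), 2.16 and 1.79 (Tip60 KD), 1.48 and 1.16 (Hdac6 KD), and 2.12 and 1.77 (double KD). Replicate A exceeded replicate B in every group, and Tip60 KD and double KD lie above the control KD values of the same letter while Hdac6 KD lies below them. The changes were 0.43 (adjusted p 0.167, or 0.00176 with the block) in Tip60 KD, -0.22 (adjusted p 0.518, or 0.0233 with the block) upon Hdac6 KD and 0.40 (adjusted p 0.217, or 0.00313 with the block) in double KD. A second, dimmer Ino80 oligonucleotide gave -2.27 and -2.48 (control KD), -1.62 and -1.82 (Tip60 KD), -1.76 and -1.92 (Hdac6 KD), and -1.30 and -1.42 (double KD). It was higher in all 3 knockdowns, by 0.65 (adjusted p 0.0104), 0.53 (adjusted p 0.0297) and 1.01 (adjusted p 0.00406) in the same order, so that the sign in Hdac6 KD differed between the 2 oligonucleotides.

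Hells (Lsh), a Snf2 ATPase that takes part in DNA methylation, gave 3.95 and 3.66 (control KD), 4.26 and 4.10 (Tip60 KD), 3.86 and 3.81 (Hdac6 KD), and 4.04 and 3.95 (double KD). Both Tip60 KD arrays lie above both control KD arrays, and double KD lies close to the higher of the 2 control KD arrays. Hells rose by 0.38 (SE 0.12, adjusted p 0.0605) in Tip60 KD and was at 0.19 (adjusted p 0.324, or 0.084 with the block) in double KD. Atrx, the partner of Daxx in placing histone H3.3, gave 1.31 and 1.08 (control KD), 1.19 and 1.13 (Tip60 KD), 1.45 and 1.34 (Hdac6 KD) and 1.08 on the 1 double KD array left, replicate B, since the spot of replicate A had been marked as an outlier and was dropped from the fit. No Atrx change was called with it, at -0.03 (adjusted p 0.865), 0.20 (adjusted p 0.29, or 0.0812 with the block) and -0.12 (adjusted p 0.605). A second of its 3 measured oligonucleotides was higher by 0.70 (adjusted p 0.0208) in Hdac6 KD and by 0.73 (adjusted p 0.0157) in double KD, and the third was not called in any knockdown.

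Ruvbl1 and Ruvbl2, paired AAA+ ATPases shared by INO80, SRCAP and Tip60-p400, were not called. Ruvbl1 gave 4.21 and 4.03 (control KD), 4.32 and 4.19 (Tip60 KD), 4.22 and 4.15 (Hdac6 KD), and 4.25 and 4.18 (double KD). Ruvbl2 gave 4.81 and 4.69 (control KD), 4.80 and 4.60 (Tip60 KD), 4.58 and 4.62 (Hdac6 KD), and 4.63 and 4.41 (double KD). The groups of Ruvbl1 overlap, and Ruvbl2 lies below control KD in Hdac6 KD and double KD. Changes from control KD ran from 0.07 to 0.13 for Ruvbl1 and from -0.23 to -0.05 for Ruvbl2. The double KD value of Ruvbl2 passed with the block (adjusted p 0.0618, against 0.221 without). Chd1, which binds methylated H3K4, gave -1.31 and -1.31 (control KD), -1.2 and -0.96 (Tip60 KD), -1.17 and -1.07 (Hdac6 KD), and -1.34 and -1.14 (double KD). Both single knockdowns lie above control KD and double KD spans it, and no change was called, with 0.23 (adjusted p 0.203, or 0.0455 with the block), 0.19 (adjusted p 0.32, or 0.086 with the block) and 0.08 (adjusted p 0.706). Srcap, which loads the variant H2A.Z, gave -2.71 and -1.86 (control KD), -2.38 and -2.02 (Tip60 KD), -2.46 and -2.03 (Hdac6 KD), and -2.47 and -2.03 (double KD). Control KD replicate A was at the lower limit and the 2 control KD values span those of every other group, so that little could be measured for it (SE 0.33).

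**Figure D2:**
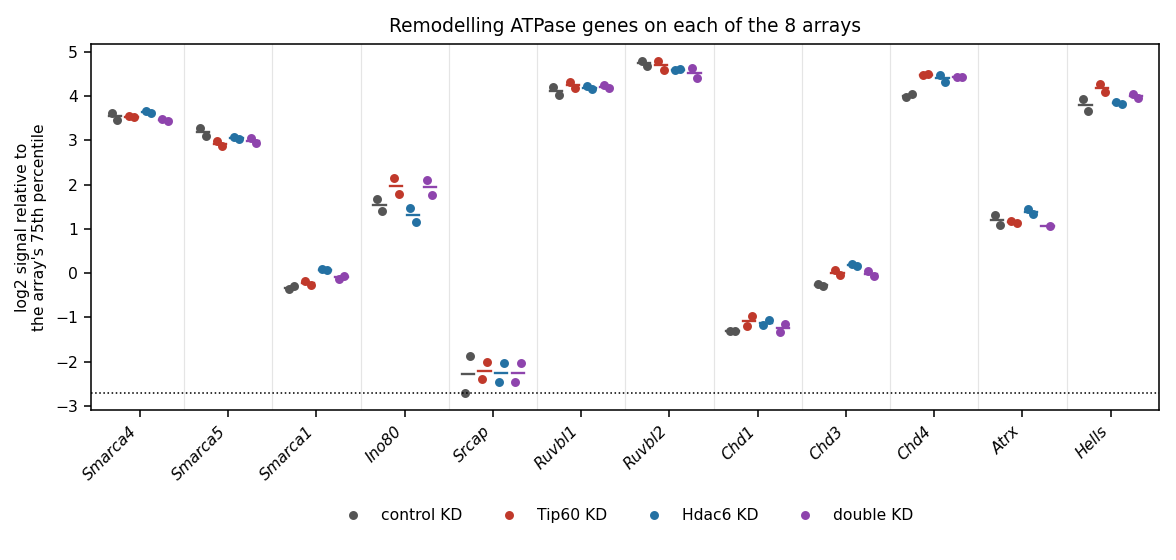
Log2 signal of 12 ATPase genes on each of the 8 arrays, relative to the 75th percentile of the array. Points are arrays, short lines are group means, the dotted line is the lower limit of measurement, and double KD replicate A is missing for Atrx. Oligonucleotides differ in brightness, so only groups of the same gene can be compared. Chd4 and Chd3 stand above control KD in all 3 knockdowns, while Smarca4 stays between 3.43 and 3.67.

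BAF and PBAF were the largest group. Of its 16 tested genes, Smarca4 included, 8 were called upon Tip60 KD (6 higher, 2 lower), 8 upon Hdac6 KD (all higher) and 7 in double KD (all higher). These counts are 50%, 50% and 43.8% of the group, beside 39.7%, 28.9% and 32.8% of all genes. The median changes of the 16 genes were 0.24, 0.36 and 0.25, beside 0.06, 0.03 and 0.05 over all genes.

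The exchangeable Smarcd subunits differed from one another. Smarcd3 (Baf60c), the form known from heart and muscle development, gave -1.43 and -1.48 (control KD), 0.23 and 0.19 (Tip60 KD), -0.81 and -0.84 (Hdac6 KD), and -0.25 and -0.33 (double KD). The 4 groups do not overlap, with control KD lowest and Tip60 KD highest. Smarcd3 rose by 1.66 (SE 0.07, adjusted p 0.00051) in Tip60 KD, by 0.63 (SE 0.07, adjusted p 0.00483) in Hdac6 KD and by 1.16 (SE 0.07, adjusted p 0.00118) in double KD, or 3.17-fold, 1.55-fold and 2.24-fold. Smarcd1 (Baf60a), the form of the ESC complex, gave 0.39 and 0.37 (control KD), 0.97 and 1.12 (Tip60 KD), 0.47 and 0.57 (Hdac6 KD), and 0.63 and 0.72 (double KD). Its Tip60 KD arrays lie highest and every knockdown array above the control KD arrays. It rose by 0.67 (SE 0.09, adjusted p 0.00331) in Tip60 KD and by 0.30 (adjusted p 0.0573) in double KD, where the call was lost without any 1 of the 4 arrays compared (up to 0.201), and was at 0.14 (adjusted p 0.331) in Hdac6 KD. Smarcd2 (Baf60b) gave -0.01 and 0.06 (control KD), -0.14 and -0.26 (Tip60 KD), 0.18 and 0.09 (Hdac6 KD), and -0.18 and -0.15 (double KD). Its Tip60 KD and double KD arrays lie below control KD and its Hdac6 KD arrays above, and it fell in Tip60 KD, with a change of -0.23 (SE 0.08, adjusted p 0.0899), and was at -0.19 (adjusted p 0.15, or 0.0685 with the block) in double KD.

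Actl6a (Baf53a), an actin-related subunit of BAF, INO80 and Tip60-p400, gave 3.72 and 3.65 (control KD), 4.66 and 4.58 (Tip60 KD), 4.13 and 3.96 (Hdac6 KD), and 4.41 and 4.12 (double KD). No knockdown array overlaps the control KD arrays. Actl6a rose by 0.94 (SE 0.12, adjusted p 0.00347) in Tip60 KD and by 0.58 (adjusted p 0.0221) in double KD. In Hdac6 KD it rose by 0.36 (adjusted p 0.0944), a call that was lost without any 1 of 6 arrays, those of double KD excepted (up to 0.309), and under several processing choices. The double KD call was lost without control KD replicate B (adjusted p 0.1).

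The core subunits moved upwards in smaller steps. Smarcb1 (Snf5) gave 1.87 and 1.87 (control KD), 2.21 and 2.23 (Tip60 KD), 2.39 and 2.25 (Hdac6 KD), and 2.17 and 2.16 (double KD). Every knockdown array lies above both control KD arrays, and Smarcb1 rose by 0.35 (adjusted p 0.0187) in Tip60 KD, 0.45 (adjusted p 0.0135) upon Hdac6 KD and 0.30 (adjusted p 0.0399) in double KD, the last of these lost without any 1 of the 4 arrays compared (up to 0.134). Smarcc1 (Baf155), the scaffold subunit used in ESCs, rose by 0.41 (adjusted p 0.0256) and 0.33 (adjusted p 0.067) in the single knockdowns and was at 0.20 (adjusted p 0.218, or 0.0821 with the block) in double KD. The Hdac6 KD call was lost without control KD replicate B or any Hdac6 KD or double KD array (up to 0.24). Its 3 further oligonucleotides were not called in any knockdown. Smarcc2 (Baf170), its relative, had 3 of 8 values at the lower limit and was not called (0.17 to 0.38 over the 3 knockdowns), but passed with the block in Hdac6 KD (adjusted p 0.0416). Smarce1 (Baf57), an HMG-box subunit, gave 1.35 and 1.08 (control KD), 1.49 and 1.56 (Tip60 KD), 1.71 and 1.82 (Hdac6 KD), and 1.42 and 1.62 (double KD). Every knockdown array lies above control KD, whose 2 arrays differ by more than those of any other group. Smarce1 rose by 0.55 (adjusted p 0.0294) in Hdac6 KD, a call lost without control KD replicate B or Hdac6 KD replicate B (up to 0.147), and with the mean of its probes it was 0.34. It was at 0.31 (adjusted p 0.117, or 0.0763 with the block) and 0.30 (adjusted p 0.137, or 0.0854 with the block) in Tip60 KD and double KD. A second Smarce1 oligonucleotide was not called, at 0.13 (adjusted p 0.682) in Hdac6 KD.

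The subunits that set the type of BAF complex went different ways. Arid1b (Baf250b) gave -1.05 and -1.17 (control KD), -1.17 and -1.18 (Tip60 KD), -0.36 and -0.20 (Hdac6 KD), and -0.73 and -0.67 (double KD). Hdac6 KD lies highest and double KD between it and the other groups, without overlap, while Tip60 KD lies just under control KD. Arid1b rose by 0.82 (SE 0.09, adjusted p 0.00409) in Hdac6 KD and by 0.40 (adjusted p 0.0246) in double KD, and was at -0.07 (adjusted p 0.633) in Tip60 KD. Without control KD replicate B or double KD replicate B the double KD call was lost (up to 0.109). Arid2 (Baf200), which marks PBAF instead, gave 1.17 and 1.1 (control KD), 0.57 and 0.20 (Tip60 KD), 1.31 and 1.03 (Hdac6 KD), and 1.01 and 0.66 (double KD). Both Tip60 KD arrays lie far below control KD, double KD lies below it by less, and Hdac6 KD spans it. Arid2 fell in Tip60 KD, with a change of -0.75 (SE 0.18, adjusted p 0.0262), and was at 0.04 (adjusted p 0.934) upon Hdac6 KD and -0.30 (adjusted p 0.313, or 0.0365 with the block) in double KD.

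Arid1a (Baf250a), the paralogue of Arid1b that ESCs need for self-renewal, gave different answers from 2 oligonucleotides. The brighter gave 3.37 and 3.00 (control KD), 3.46 and 3.24 (Tip60 KD), 3.88 and 3.75 (Hdac6 KD), and 3.87 and 3.72 (double KD). Control KD and Tip60 KD overlap there, and Hdac6 KD and double KD lie above both, with increases of 0.63 (adjusted p 0.0364) and 0.61 (adjusted p 0.036) and a Tip60 KD change of 0.16 (adjusted p 0.5). The dimmer one printed above gave 0.72 and 0.63 (control KD), 1.79 and 1.57 (Tip60 KD), 1.92 and 1.76 (Hdac6 KD), and 1.81 and 1.69 (double KD). All 6 knockdown arrays lie well above control KD on it, and it was higher by 1.00 (adjusted p 0.00205) in Tip60 KD, 1.16 (adjusted p 0.003) upon Hdac6 KD and 1.08 (adjusted p 0.00297) in double KD. On the brighter oligonucleotide the Hdac6 KD call was lost without control KD replicate B or either Hdac6 KD array (up to 0.151), and the double KD call without control KD replicate B or double KD replicate A (up to 0.147).

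Of the bromodomain and PHD finger subunits, Pbrm1 (Baf180), the polybromo subunit of PBAF, gave 0.89 and 0.94 (control KD), 1.3 and 1.21 (Tip60 KD), 1.24 and 1.29 (Hdac6 KD), and 0.97 and 1.03 (double KD). Both single knockdowns lie above control KD and double KD only just above it. Pbrm1 rose by 0.34 (adjusted p 0.0194) in Tip60 KD and by 0.35 (adjusted p 0.0263) in Hdac6 KD and was at 0.08 (adjusted p 0.499) in double KD. Its Hdac6 KD call was lost without control KD replicate A or Hdac6 KD replicate B (up to 0.131). A second Pbrm1 oligonucleotide was also higher upon Hdac6 KD, by 0.40 (adjusted p 0.0195), and at 0.18 (adjusted p 0.134) upon Tip60 KD. Brd9, the bromodomain protein of the non-canonical complex, was dim, giving -2.24 and -2.62 (control KD), -1.67 and -2.21 (Tip60 KD), -1.83 and -2.09 (Hdac6 KD), and -1.70 and -1.68 (double KD). It rose by 0.74 (adjusted p 0.0587) in double KD, a call lost without control KD replicate B or either double KD array (up to 0.228), and was at 0.49 (adjusted p 0.152, or 0.0273 with the block) and 0.47 (adjusted p 0.197, or 0.0374 with the block) in Tip60 KD and Hdac6 KD. Dpf2 was not called (-0.21 to -0.08 over the 3 knockdowns), but passed with the block in Hdac6 KD and double KD (adjusted p 0.0448 and 0.0711). Brd7, a bromodomain subunit of PBAF, was not called with its brighter oligonucleotide (-0.11 to -0.03). Its second oligonucleotide had the opposite sign and was called in all 3 knockdowns, at 0.36 (adjusted p 0.0828), 0.56 (adjusted p 0.03) and 0.42 (adjusted p 0.0625) in the order Tip60 KD, Hdac6 KD, double KD.

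**Figure D3:**
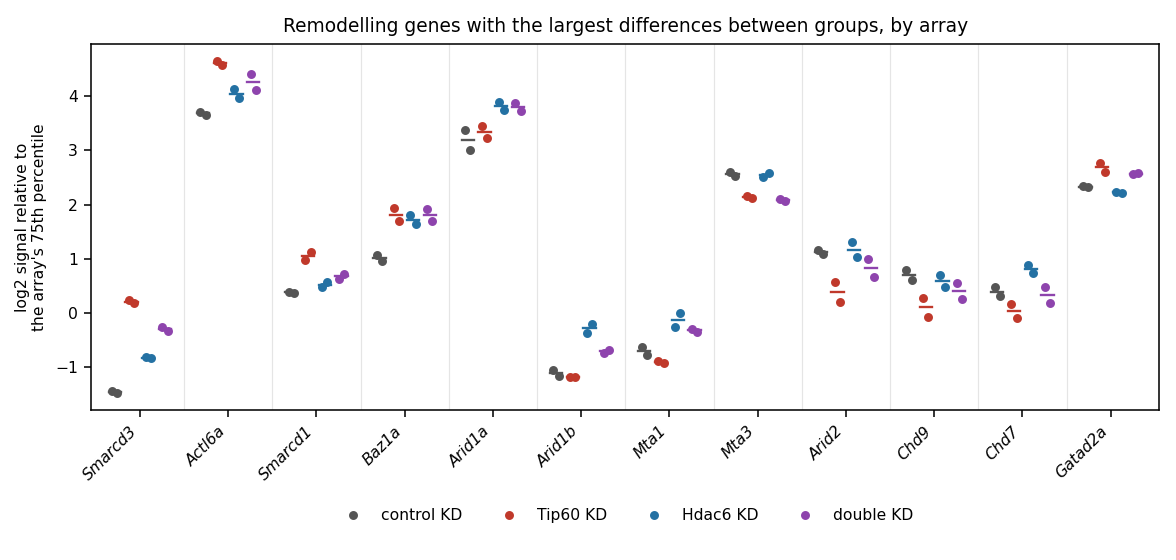
Log2 signal of 12 remodelling genes on each of the 8 arrays, relative to the 75th percentile of the array. Points are arrays and short lines are group means. Smarcd3 separates all 4 groups, Arid1b and Mta1 are highest in Hdac6 KD, and Arid2 and Chd9 are lowest in Tip60 KD.

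NuRD joins a Chd ATPase to deacetylases, and its other subunits split by paralogue. Of the 7 tested, both ATPases included, 4 were called upon Tip60 KD (3 higher, 1 lower), 4 upon Hdac6 KD (all higher) and 5 in double KD (4 higher, 1 lower), with median changes of 0.22, 0.40 and 0.24. The called shares were 57.1%, 57.1% and 71.4%, beside 39.7%, 28.9% and 32.8% of all genes, whose median changes were 0.06, 0.03 and 0.05. The 3 Mta scaffold proteins behaved differently. Mta1 gave -0.63 and -0.77 (control KD), -0.88 and -0.91 (Tip60 KD), -0.26 and 0.01 (Hdac6 KD), and -0.29 and -0.35 (double KD). Hdac6 KD and double KD lie above control KD and Tip60 KD below it, without overlap. Mta1 rose by 0.57 (SE 0.11, adjusted p 0.0202) in Hdac6 KD and by 0.38 (adjusted p 0.0583) in double KD, the latter lost without any 1 of the 4 arrays compared (up to 0.215), and was at -0.20 (adjusted p 0.251) in Tip60 KD.

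Mta3 gave 2.60 and 2.53 (control KD), 2.16 and 2.12 (Tip60 KD), 2.51 and 2.57 (Hdac6 KD), and 2.11 and 2.06 (double KD). Tip60 KD and double KD lie below the other groups without overlap, and Hdac6 KD overlaps control KD. Mta3 fell in Tip60 KD, with a change of -0.43 (SE 0.07, adjusted p 0.00844), and in double KD, with -0.48 (SE 0.07, adjusted p 0.00826), and was at -0.02 (adjusted p 0.875) in Hdac6 KD. Its second oligonucleotide, printed above, gave -0.22 and -0.15 (control KD), -1.33 and -1.05 (Tip60 KD), -0.69 and -0.44 (Hdac6 KD), and -1.31 and -1.08 (double KD). It gave larger decreases in the same groups, -1.0 (adjusted p 0.0043) in Tip60 KD and -1.01 (adjusted p 0.00643) in double KD, and -0.38 (adjusted p 0.121) in Hdac6 KD. Mta2 was not called against control KD, with changes of -0.18, 0.14 and 0.03, but passed with the block in Tip60 KD (adjusted p 0.0446).

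Mbd3, the methyl-CpG-binding-domain protein that NuRD needs for assembly, gave 3.23 and 3.24 (control KD), 3.52 and 3.39 (Tip60 KD), 3.69 and 3.67 (Hdac6 KD), and 3.45 and 3.23 (double KD). Hdac6 KD lies highest, and it rose there by 0.44 (adjusted p 0.0289), a call lost without any 1 of the 4 arrays compared (up to 0.12), while Tip60 KD was at 0.22 (adjusted p 0.158, or 0.0543 with the block) and double KD at 0.10 (adjusted p 0.527). A second Mbd3 oligonucleotide was not called, at 0.28 (adjusted p 0.359) in Hdac6 KD. Gatad2a (p66alpha), which links Mbd3 to Chd4, gave 2.34 and 2.33 (control KD), 2.77 and 2.61 (Tip60 KD), 2.24 and 2.21 (Hdac6 KD), and 2.56 and 2.58 (double KD). It rose by 0.36 (SE 0.08, adjusted p 0.0214) in Tip60 KD and by 0.24 (adjusted p 0.0905) in double KD, and was at -0.11 (adjusted p 0.438) in Hdac6 KD. The double KD call was lost without any array of control KD, Hdac6 KD or double KD (up to 0.246). Of its 2 other oligonucleotides, one was also higher in Tip60 KD (0.53, adjusted p 0.0316) and the other was at -0.20 (adjusted p 0.161). Gatad2b (p66beta) was at the lower limit on all 8 arrays, though well above background on 6.

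ISWI partners were led by Baz1a (Acf1), the regulatory subunit of ACF and CHRAC, which gave 1.07 and 0.97 (control KD), 1.94 and 1.69 (Tip60 KD), 1.81 and 1.64 (Hdac6 KD), and 1.92 and 1.70 (double KD). All 6 knockdown arrays lie above control KD. Baz1a rose by 0.80 (SE 0.13, adjusted p 0.00674) in Tip60 KD, by 0.71 (SE 0.13, adjusted p 0.0164) in Hdac6 KD and by 0.80 (SE 0.13, adjusted p 0.0098) in double KD. The second Baz1a oligonucleotide printed above gave 0.89 (adjusted p 0.00265), 0.81 (adjusted p 0.00673) and 0.68 (adjusted p 0.00907). Baz2a (Tip5), the NoRC subunit that silences ribosomal DNA, gave 2.56 and 2.36 (control KD), 2.37 and 2.39 (Tip60 KD), 2.12 and 2.02 (Hdac6 KD), and 2.08 and 2.06 (double KD). Hdac6 KD and double KD lie below control KD, and Tip60 KD overlaps it. Baz2a fell in Hdac6 KD, with -0.39 (adjusted p 0.0374), and in double KD, with -0.39 (adjusted p 0.0325), and was at -0.08 (adjusted p 0.575) in Tip60 KD. The Hdac6 KD call was lost without control KD replicate A or Hdac6 KD replicate B (up to 0.178), and the double KD call without control KD replicate A or either double KD array (up to 0.125). Bptf, the large subunit of NURF, was not called (-0.19 to 0.11 over the 3 knockdowns), but passed with the block in Tip60 KD (adjusted p 0.0843). Baz1b (Wstf) was not called with its brighter oligonucleotide (-0.18 to 0.15), whereas a second one was higher by 0.64 (adjusted p 0.0499) in Hdac6 KD and by 0.62 (adjusted p 0.0498) in double KD, and at -0.26 (adjusted p 0.325) in Tip60 KD. Over all 6 ISWI genes, 2, 3 and 3 were called in the 3 knockdowns, with median changes of -0.01, 0.13 and -0.15. These counts are 33.3%, 50% and 50% of the group, beside 39.7%, 28.9% and 32.8% of all genes.

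In the INO80 and SRCAP group the actin-related proteins fell in Tip60 KD. Actr8 (Arp8) gave 1.56 and 1.47 (control KD), 1.05 and 1.08 (Tip60 KD), 1.51 and 1.36 (Hdac6 KD), and 1.33 and 1.1 (double KD). Tip60 KD lies below control KD and so does double KD, while Hdac6 KD overlaps control KD. Actr8 fell in Tip60 KD, with -0.45 (SE 0.11, adjusted p 0.0243), and in double KD, with -0.31 (adjusted p 0.0938), a call that was lost without any 1 of 7 arrays, double KD replicate A excepted (up to 0.329), and under 8 of 13 other alternatives. Actr5 (Arp5) gave -0.75 and -0.65 (control KD), -0.98 and -1.0 (Tip60 KD), -0.81 and -1.01 (Hdac6 KD), and -0.90 and -0.97 (double KD). All 6 knockdown arrays lie below control KD. It fell in Tip60 KD, with -0.29 (adjusted p 0.0623), and was at -0.21 (adjusted p 0.179, or 0.0846 with the block) upon Hdac6 KD and -0.23 (adjusted p 0.127, or 0.0583 with the block) in double KD. Of the 6 tested genes of this group, limma called 2 in Tip60 KD and 1 in double KD, all lower, and 0 in Hdac6 KD, where 0 had an unadjusted p under 0.05. With the block Ino80 and Actr5 were called in Hdac6 KD. The median changes were 0.02, -0.12 and -0.10.

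The other CHD proteins went in both directions. Chd8, which binds CTCF and beta-catenin, gave 1.5 and 1.41 (control KD), 1.92 and 1.93 (Tip60 KD), 1.66 and 1.49 (Hdac6 KD), and 1.78 and 1.69 (double KD). Tip60 KD lies highest, and Chd8 rose by 0.47 (SE 0.09, adjusted p 0.0119) there and by 0.28 (adjusted p 0.0726) in double KD, the latter lost without any array of control KD, Tip60 KD or double KD (up to 0.241). Chd9, a relative of Chd7 and Chd8, gave 0.79 and 0.61 (control KD), 0.28 and -0.07 (Tip60 KD), 0.69 and 0.48 (Hdac6 KD), and 0.56 and 0.26 (double KD). Tip60 KD lies below control KD, and Chd9 fell there, with -0.60 (SE 0.17, adjusted p 0.0449). In double KD it was at -0.29 (adjusted p 0.297, or 0.016 with the block). Chd7, the gene of CHARGE syndrome, gave 0.48 and 0.31 (control KD), 0.17 and -0.09 (Tip60 KD), 0.89 and 0.73 (Hdac6 KD), and 0.48 and 0.19 (double KD). Its Tip60 KD arrays lie below control KD and its Hdac6 KD arrays above it, at -0.36 (adjusted p 0.123, or 0.00485 with the block) and 0.42 (adjusted p 0.104, or 0.00418 with the block). Chd2, a relative of Chd1, gave -0.93 and -1.12 (control KD), -1.16 and -1.69 (Tip60 KD), -1.41 and -1.61 (Hdac6 KD), and -1.43 and -1.72 (double KD). Every knockdown array lies below both control KD arrays, and Chd2 was at -0.40 (adjusted p 0.203, or 0.0175 with the block), -0.48 (adjusted p 0.159, or 0.0119 with the block) and -0.55 (adjusted p 0.109, or 0.0071 with the block). Of the 6 tested genes, limma called 2 upon Tip60 KD, 0 upon Hdac6 KD and 1 in double KD, with 1 at an unadjusted p under 0.05 in Hdac6 KD and, with the block, Chd1, Chd2 and Chd7. The median changes were -0.11, 0.01 and 0.00. Over all genes 39.7%, 28.9% and 32.8% were called without the block, with median changes of 0.06, 0.03 and 0.05, and 53.0% with it in Hdac6 KD. A second Chd6 oligonucleotide read -1.95 and -2.33 in control KD and lay at the lower limit on all 6 knockdown arrays, so that its difference of -0.57 in each is set by the limit. The brighter Chd6 oligonucleotide gave -0.05 and -0.20 (control KD), 0.10 and -0.07 (Tip60 KD), -0.15 and -0.30 (Hdac6 KD), and 0.05 and -0.15 (double KD). Its groups overlap, and it was not called (-0.11 to 0.14), but passed with the block in Tip60 KD (adjusted p 0.0689).

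For 15 genes, 19 further oligonucleotides passed the filter. In the fit on single oligonucleotides, 8, 9 and 10 of the 19 were called in the 3 knockdowns, among them the Chd6 one at the limit each time. The same fit called 40.6%, 30.0% and 33.8% of all 22594 oligonucleotides. Their change had the sign of the gene's brightest oligonucleotide for 12, 16 and 12 of them. Where both were called, in 3, 4 and 5 cases, the direction was the same in every case.

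**Figure D4:**
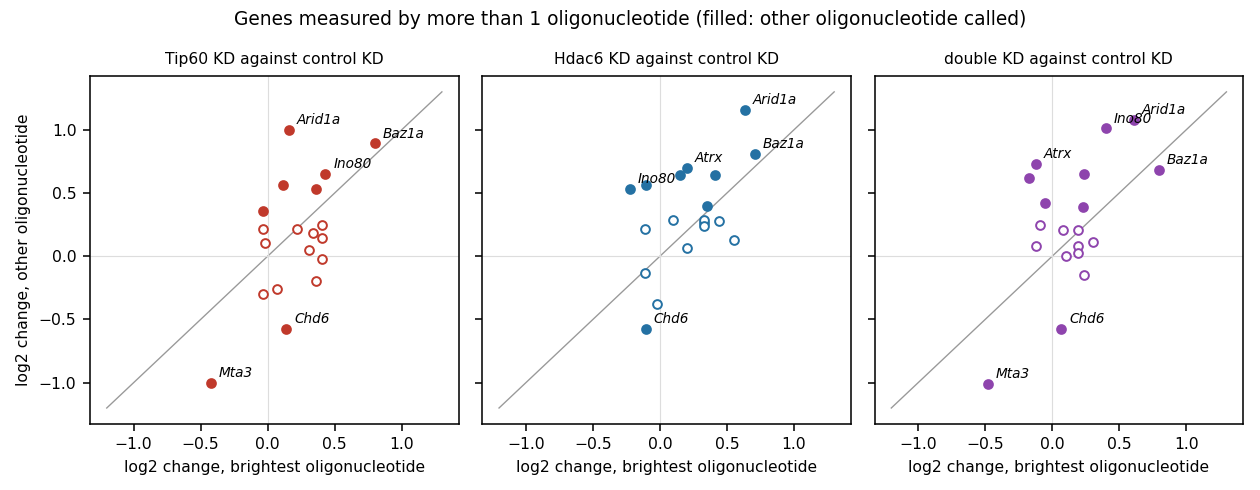
Log2 change of 19 further oligonucleotides of 15 genes (vertical axis) against that of the brightest oligonucleotide of the same gene (horizontal axis), in each knockdown against control KD. Filled points were called for the further oligonucleotide and the line marks equal change. Baz1a and Mta3 lie on the same side of 0 on both axes, whereas Chd6, at -0.57, is at the lower limit in all knockdowns.

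Between the knockdowns, the contrast of Tip60 KD with Hdac6 KD separated the most genes. It called 17 of the 43 genes (39.5%), 7 higher and 10 lower in Tip60 KD, beside 23.5% of all genes. With the block 24 were called, beside 41.5% of all genes. Smarcd3 (1.04, adjusted p 0.00258), Ino80 (0.66, adjusted p 0.083) and Actl6a (0.57, adjusted p 0.0303) were highest in Tip60 KD relative to Hdac6 KD, followed by Smarcd1 (0.53, adjusted p 0.0141). Arid1b (-0.89, adjusted p 0.00417), Arid2 (-0.79, adjusted p 0.0382), Chd7 (-0.78, adjusted p 0.0213) and Mta1 (-0.77, adjusted p 0.0105) were lowest. Arid1b, Mta1 and Chd7 differed between the 2 single knockdowns by the test of the difference itself. All 17 moved the same way on both slides. Smarcd1, Smarcd3, Arid1b and Mta1 kept this call under all 21 alternatives. The call of Ino80 was lost without any control KD, Tip60 KD or Hdac6 KD array (up to 0.322), that of Actl6a without either Tip60 KD array or Hdac6 KD replicate B (up to 0.149), and those of Arid2 and Chd7 without Tip60 KD replicate B or Hdac6 KD replicate A (up to 0.18 and 0.12). Under the 13 other alternatives the Ino80 call was lost in 6, among them normexp and the mean of its probes, and that of Arid2 in 2. The dimmer Ino80 oligonucleotide gave -1.62 and -1.82 in Tip60 KD and -1.76 and -1.92 in Hdac6 KD. The count of called genes was 10 without Tip60 KD replicate A, 6 without Tip60 KD replicate B, 8 without Hdac6 KD replicate A and 7 without Hdac6 KD replicate B.

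Few genes separated double KD from a single knockdown. Against Tip60 KD, Smarcd3 was lower in double KD (-0.50, adjusted p 0.0657), and Mta1 (0.58, adjusted p 0.0848) and Arid1b (0.47, adjusted p 0.0831) were higher, 3 of 43 genes (6.98%) beside 3.71% of all genes. With the block 12 were called, beside 26.2% of all genes. None of the 3 was called once any array was left out (adjusted p up to 0.263 for Smarcd3, 0.289 for Mta1 and 0.281 for Arid1b). Against Hdac6 KD, Smarcd3 (0.53, adjusted p 0.021) and Gatad2a (0.35, adjusted p 0.0759) were higher in double KD and Mta3 (-0.45, adjusted p 0.0319) and Arid1b (-0.42, adjusted p 0.0582) lower, 4 of 43 (9.30%) beside 10.1% of all genes. With the block 16 were called, beside 29.4%. Without any 1 of the Hdac6 KD or double KD arrays none of the 4 was called, and Arid1b was lost also without either Tip60 KD array and Gatad2a without either control KD array (adjusted p up to 0.144 for Smarcd3, 0.286 for Gatad2a, 0.184 for Mta3 and 0.257 for Arid1b).

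The interaction contrast subtracts the sum of the 2 single-knockdown changes from the double KD change, so that a value of 0 means additive log2 changes. It was below 0 and called for 11 of the 43 genes (25.6%), above 0 and called by limma for 0 of them (14 had an unadjusted p under 0.05, all below 0), and the median was -0.17, beside 22.0% called and a median of -0.04 over all genes, of which 2017 were called above and 1973 below 0. With the block 18 of the 43 were called, 16 below and 2 above 0, beside 47.1% of all genes, the 2 above being Arid2 and Chd9. Of the 11, 7 are among the 16 BAF and PBAF genes tested, 3 among the 7 of NuRD and 1 among the 6 of ISWI. Smarcd3 showed the largest departure, -1.13 (SE 0.10, adjusted p 0.00764). Its log2 changes of 1.66 and 0.63 in the single knockdowns were followed by 1.16 in double KD, between the 2. Pbrm1, which had risen in both single knockdowns, departed by -0.60 (SE 0.11, adjusted p 0.0217). Baz1a rose by nearly the same amount in all 3 knockdowns and departed by -0.71 (SE 0.18, adjusted p 0.0569). The contrast uses the same control KD arrays as the single-knockdown changes, with the opposite sign, so that the 2 kinds of value are not independent.

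All 11 interaction values had the same sign on both slides, as did 23 of the 32 others. Smarcd3 and Pbrm1 kept their call under all 20 alternatives that could be run. The count was 5 without control KD replicate A, 3 without control KD replicate B, 4 and 7 without Tip60 KD replicates A and B, 3 and 5 without Hdac6 KD replicates A and B, and 7 and 5 without double KD replicates A and B.

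**Figure D5:**
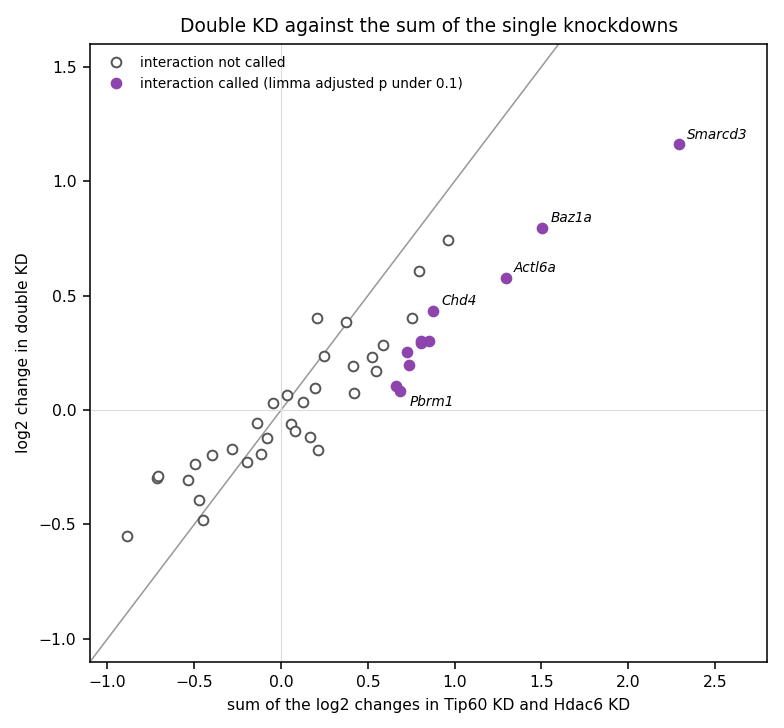
Log2 change of the 43 genes in double KD (vertical axis) against the sum of their log2 changes in Tip60 KD and Hdac6 KD (horizontal axis), each against control KD. The line marks additive changes and filled points are the 11 genes with a called interaction. All filled points lie below the line, with Smarcd3 at 1.16 on the vertical axis. Both axes share the control KD arrays.

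A further list of 48 remodeller genes outside the 45 was tested in the same fit, and 46 of them passed the filter. Upon Tip60 KD 25 were called (54.3%, beside 39.7% of all genes), 13 higher and 12 lower, with a median change of 0.03. The highest were Yeats4 (GAS41), a subunit shared by SRCAP and Tip60-p400, at 1.04 (adjusted p 0.00463), the BAF subunit Dpf1 at 0.85 (adjusted p 0.0214) and Mbd2, the alternative to Mbd3 in NuRD, at 0.76 (adjusted p 0.00423). The BAF subunit Bcl7a (-0.97, adjusted p 0.0146), the Snf2 family helicase Zranb3 (-0.86, adjusted p 0.00203) and the ISWI partner Cecr2 (-0.85, adjusted p 0.00375) were lowest. Upon Hdac6 KD 15 were called (32.6%, beside 28.9%), 7 higher and 8 lower, with a median of 0.00. Mbd2 (1.17, adjusted p 0.0029), Ino80e (0.79, adjusted p 0.00544) and Yeats4 (0.57, adjusted p 0.047) were highest, and the histone chaperone subunit Rbbp7 (-0.92, adjusted p 0.00518), Ercc6 (-0.63, adjusted p 0.0972) and Ep400 (-0.52, adjusted p 0.0482) lowest. In double KD 22 were called (47.8%, beside 32.8%), 10 higher and 12 lower, with a median of 0.10, led by Baz2b (0.77, adjusted p 0.0298), Vps72 (0.67, adjusted p 0.025) and Mbd2 (0.65, adjusted p 0.00997) on the one side and by Rbbp7 (-0.77, adjusted p 0.00666), Cecr2 (-0.76, adjusted p 0.00775) and Ercc6 (-0.71, adjusted p 0.0641) on the other.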

How the data were processed

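Total RNA was measured on Agilent 1-colour arrays (Cy3), 2 arrays for each of 4 groups, assigned from the sample labels. Per the file headers, the authors deposited fluorescence intensity per spot from Feature Extraction 10.7.1.1, background-subtracted but not scaled between arrays. A deposited matrix held log2 values whose columns ranked spots as the median signal did (Spearman rho at least 0.9997), with nearly equal medians (8.19 to 8.20), so it was taken as quantile-normalised and used as an alternative.

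Outlier spots were set to missing and spots of a probe averaged. The processed signal was divided by the 75th percentile of its array (1132 to 1514 intensity units), raised to a floor of 0.153 of it (log2 of -2.71), the highest among arrays of the lowest signal well above background, and converted to log2. A probe was kept when 2 or more arrays had it above both background and this floor, and a gene took its probe of highest mean, giving 18116 genes. RefSeq accessions named 27234 of 39429 probes. No spot was saturated. Of the values of the genes reported, 4 lay at the floor. Arrays differed in the background subtracted (37.2 to 114.3 intensity units), which bears on dim probes. For replicates A and B it was 61 and 114.3 (control KD), 37.2 and 89.0 (Tip60 KD), 37.7 and 86.9 (Hdac6 KD), and 39.4 and 41.4 (double KD). Control KD thus had the highest value of the groups for each letter. The part of this in the changes of dim genes was not tested.

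Differences were fitted with limma 3.58.1 in R 4.3.3 (lmFit and eBayes, 2-sided, all 8 arrays, no block) and called at a Benjamini-Hochberg adjusted p under 0.1 over all genes, the study's threshold. Residual degrees of freedom were 4 and the prior ones 1.84. Precision is limited by the number of arrays. The p-values measure the spread between these 2 arrays per group, which the study's methods call biological replicates. Replicate letter, slide and scan coincide. Differences between replicates A and B correlated across genes for every one of 6 pairs of groups (0.651 to 0.799), so the letter was also fitted as a block. Each group had a fixed place on the slide, so place and group cannot be told apart. On simulated data with the spread of 18116 genes, 200 of them changed by 1 on the log2 scale, the fit recovered 138, 139 and 126 of the 200 in the Tip60 KD, Hdac6 KD and double KD comparisons, with 11, 10 and 13 false calls. The simulated arrays varied independently, without the shared A and B differences, and far fewer genes were changed than were called here. These counts therefore do not give the error rate of the calls reported.

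Alternatives were normexp background correction (offset 50), one background per array, quantile normalisation, the matrix, a lower floor, missing values for the floor, no filter or a stricter one, the mean of probes, a fit on probes, the block, only the groups compared, each array left out, and an adjusted p under 0.05. The genes, lists and tests were chosen with earlier results of these data known. All 45 genes are accounted for. Values by array are given for the ATPases of BAF, ISWI, NuRD, INO80 and SRCAP, for Ruvbl1, Ruvbl2, Chd1, Atrx and Hells, for up to 6 called genes with the largest change each way in each knockdown and up to 3 in each other comparison, and, chosen after their values were seen, for Smarcb1, Smarcd2, Pbrm1, Mbd3, Chd2 and Chd6. Of the other remodeller genes up to 3 called each way are named. Promoters came from RefSeq (GRCm38.p6). No protein sequence and no genome was used here. Figures were drawn in matplotlib 3.10.9 (Python 3.11.15).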

Additional observations from a re-analysis of the deposited data

Results flagged for a closer look

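The effect of Hdac6 KD differed between cells with and without Tip60 KD, by limma's test of the difference, for 11 remodelling genes. These were 25.6% of the 43 tested, beside 22.0% of all genes. The difference (the interaction contrast, log2 scale, replicates A and B in each of 4 groups) was -1.13 for Smarcd3 (adjusted p 0.00764), -0.72 for Actl6a (0.0482), -0.60 for Pbrm1 (0.0217) and -0.51 for Smarcd1 (0.0467). It was -0.51 for Smarcb1 (0.0358), -0.54 for Smarcc1 (0.0566) and -0.55 for Smarce1 (0.0946), the other BAF subunits. For the NuRD genes it was -0.56 in Mbd3 (0.0531), -0.47 in Chd3 (0.0503) and -0.44 in Chd4 (0.062), and for the ISWI gene Baz1a -0.71 (0.0569). In all 11 the sign was the same on both slides. Of these calls, only those of Smarcd3 and Pbrm1 held under every one of the 20 alternatives. The others were lost in between 2 (Smarcb1) and 13 (Smarce1) of them. Further oligonucleotides of Smarce1, Smarcc1 and Mbd3 were not called in any knockdown against control KD. That of Pbrm1 was called only in Hdac6 KD, and that of Baz1a in all 3. The Hdac6 transcript stood at 0.30 and 0.34 in double KD and at -0.28 and -0.32 in Hdac6 KD, and the part of this in the values was not tested.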

How the results depend on the processing

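No called change of a remodelling gene turned its direction under any alternative. Of 86 calls of a gene in a comparison, 27 held under every alternative run, and over 1794 combinations of call and alternative 1376 kept the call and 418 lost it. With the replicate block the counts of called genes rose to 29 (Tip60 KD), 24 (Hdac6 KD) and 29 (double KD) against control KD, 12 for double KD against Tip60 KD, 16 for double KD against Hdac6 KD and 18 for the interaction, and the block lost none of the calls of the fit without it. The share called over all genes rose as well, to 60.9%, 53.0%, 55.5%, 26.2%, 29.4% and 47.1% in the same order. For the interaction the 18 are 41.9% of the 43, below that share. With only the groups compared in the fit, 9 genes were called in double KD against control KD, 8 for Tip60 KD against Hdac6 KD, and 0 for double KD against Tip60 KD and against Hdac6 KD. At an adjusted p under 0.05 the counts were 9 for double KD against control KD, 0 and 2 for double KD against Tip60 KD and Hdac6 KD, 11 for Tip60 KD against Hdac6 KD and 5 for the interaction. For double KD against Tip60 KD (3 genes, 10 at an unadjusted p under 0.05), 0 were called with normexp, quantile normalisation or the matrix, and 1 with one background per array, a lower floor or missing values for the floor. For double KD against Hdac6 KD (4 genes), 2 were called with normexp or the matrix and 7 with genes above the floor on all arrays. The interaction count was 6 with normexp and 7 with one background per array. Leaving out 1 array gave 13 to 17 genes for Tip60 KD against control KD, 8 to 15 for Hdac6 KD, 5 to 16 for double KD, 0 for double KD against Tip60 KD, 0 to 3 for double KD against Hdac6 KD, 6 to 16 for Tip60 KD against Hdac6 KD, and 3 to 7 for the interaction. A group left with 1 array was assumed to vary like the others. The cause of these shifts was not tested. Signal over background limits Srcap, Smarcc2, Brd9, Smarca2 and Gatad2b, which lay at or near the floor.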
